A study of Mus musculus with 6 samples.

Results

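The Slc2a (GLUT) genes encode the facilitative sugar transporters, and they were read here as transcripts in the primary somatosensory (S1) cortex of mice with or without whisker stimulation. The members were the table rows carrying the symbols Slc2a1, Slc2a3, Slc2a4, Slc2a5, Slc2a6, Slc2a8, Slc2a10, Slc2a12 and Slc2a13. All 9 were among the 14824 listed genes, and all 9 passed the filter on low counts that left 13747 genes for testing. Bulk RNA-seq was done on 3 libraries of non-stimulated cortex (NS) and 3 libraries of whisker-stimulated cortex (WS). Both groups came from WT mice of the strain labelled C57B6 at postnatal day 21. WS pups had the whiskers of one side brushed for 15 min a day over 8 days from P14, and tissue was taken 90 min after the last session, whereas NS cortex is labelled as having no treatment. The study's scheme of the model gives the barrel cortex of the unstimulated side as its control, and its legends give 3 male mice for the RNA-seq, but the sources used here do not say which NS and WS libraries share an animal. The p-values weigh the difference between the groups against the spread between these libraries, which the planned tests treat as unpaired.

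Most GLUT proteins move sugars down their concentration gradient without energy input, so the direction of flow follows the gradient, whereas the myo-inositol transporter of the family is coupled to protons. In the brain, GLUT1 (Slc2a1) carries glucose across the capillary endothelium and into astrocytes, and GLUT3 (Slc2a3) is the main transporter of neurons. Other members carry fructose or myo-inositol, respond to insulin, or reside in intracellular membranes. The comparison of WS with NS asks whether repeated sensory input changed the RNA of any of these transporters.

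No Slc2a transcript differed between WS and NS beyond the spread between libraries. The 3 WS values overlapped the 3 NS values for all 9 members, so 0 of 9 were separated, beside 6.27% of all tested genes. A gene was called where edgeR's quasi-likelihood test gave a Benjamini-Hochberg adjusted p under 0.05 over 13747 genes together with more than 1 unit of log2 fold change. By this rule 0 of 9 members were called, beside 0.0291% of all tested genes (4 genes, all higher in WS). At an unadjusted p under 0.05, 0 of 9 members passed with edgeR and 0 with DESeq2, where few genes passed in all (119 higher and 45 lower with edgeR, 71 and 17 with DESeq2), so neither 0 is particular to the members. Fitted changes were above 0 for 4 members and below 0 for 5, with a median log2 fold change of -0.0043, against 0.0074 over all tested genes. The median size of the change without its sign was 0.118 for the members and 0.0685 over all tested genes. With 3 libraries against 3, an exact permutation test cannot give a p below 0.10.

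The libraries held between 15660395 and 17276168 counts over the listed genes, so depth was similar throughout. Values are depth-scaled counts (CPM) after TMM normalization, which rescales each library by a trimmed mean of gene ratios. Markers of neurons, astrocytes, endothelium, microglia and oligodendrocytes were all listed, and these are the cell types the labels name for this tissue, and only Ttr of the choroid plexus list was not analysed here. One NS library (replicate 3) stood apart in the astrocyte marker Gja1, at 347 counts against 2953 to 3688 in the others.

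**Figure D1:**
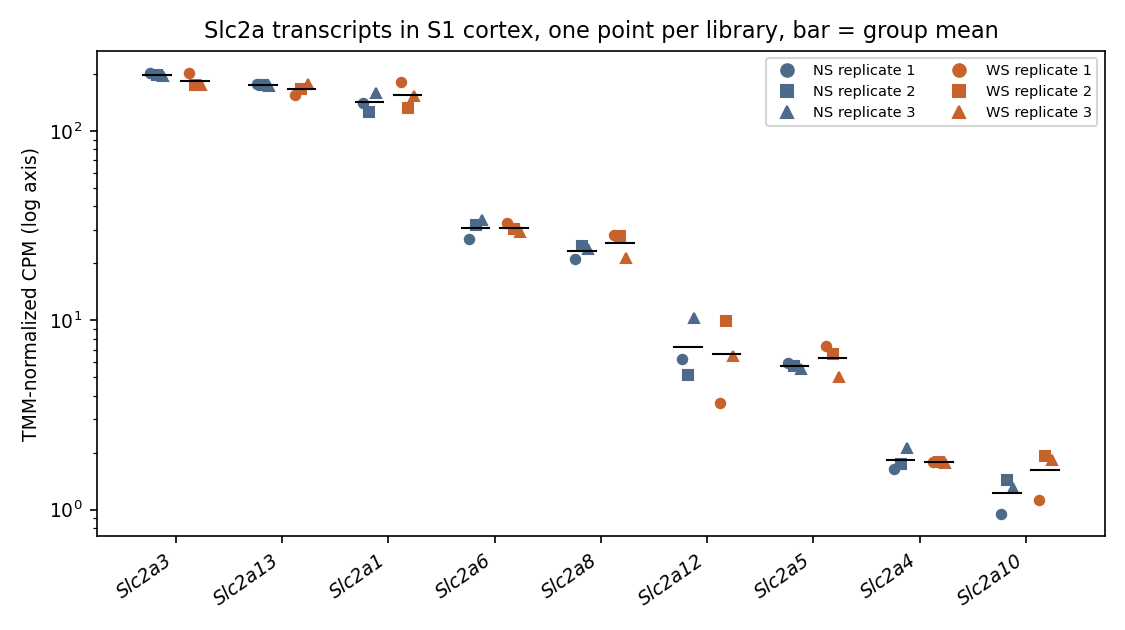
TMM-normalized CPM of the 9 Slc2a transcripts on a log axis, with 1 point per library (blue NS, orange WS, marker shape for the replicate number) and a black bar at each group mean. Slc2a3, Slc2a13 and Slc2a1 sit above 100 CPM, Slc2a4 and Slc2a10 near 1 to 2 CPM, and the groups overlap for every gene.

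Slc2a1, the glucose transporter of the blood-brain barrier and of astrocytes (GRCm38 chr4:119108711-119137983, plus strand), was measured at 140.9, 125.4 and 158.3 CPM in NS replicates 1 to 3 and at 180.2, 131.6 and 152.8 CPM in WS replicates 1 to 3. WS replicate 1 was the highest of all libraries, while WS replicates 2 and 3 lay inside the NS range. The mean was 141.5 ± 16.4 for NS and 154.9 ± 24.4 for WS (SD, 3 libraries each). The log2 fold change was 0.13 (SE 0.12) with a 95% interval from -0.13 to 0.39 and a Benjamini-Hochberg adjusted p of 0.9998 in edgeR's quasi-likelihood fit. On the linear scale the interval runs from 0.917-fold to 1.31-fold. Without WS replicate 1 the log2 fold change was 0.0072. Slc2a1 varied widely for its abundance, with a coefficient of variation over the 6 libraries of 13.5%, and 95% of tested genes with a mean count between 0.5 and 2 times its own varied less. As a description over the 6 libraries, with no test, its log2 level had a Pearson's r of 0.40 with the summed endothelial markers, 0.04 with the astrocyte markers and 0.79 with the microglial markers, the highest of the 8 marker lists. An antisense gene, Gm12868, shares 105 exonic bases with Slc2a1 and was not analysed here, and whether counting used strand is not given in the sources used here.

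Slc2a3, the high-affinity transporter of neurons (chr6:122727809-122801640, minus strand), was measured at 201.5, 197.5 and 195.5 CPM in NS and at 202.7, 175.2 and 174.9 CPM in WS. The NS values lay close together, WS replicate 1 exceeded all of them, and WS replicates 2 and 3 fell below all of them. The means were 198.2 ± 3.06 and 184.3 ± 16.0 CPM (SD, n = 3 each), with a log2 fold change of -0.10 (SE 0.08, 95% interval -0.28 to 0.07, Benjamini-Hochberg adjusted p = 0.9998 in edgeR's quasi-likelihood fit). On the linear scale the interval runs from 0.825-fold to 1.05-fold.

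Slc2a13, which encodes the proton-coupled myo-inositol transporter HMIT of neurons and glia (chr15:91267696-91573261, minus strand), was measured at 176.8, 175.6 and 172.0 CPM in NS and at 154.6, 167.4 and 178.0 CPM in WS. WS replicate 3 was the highest library and WS replicate 1 the lowest, so the NS values lay between the WS values. It was the steadiest member, with a coefficient of variation of 5.15% over the 6 libraries and a ratio of highest to lowest of 1.15. Its log2 fold change was -0.07 (SE 0.08), with a 95% interval from -0.23 to 0.10.

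Slc2a1, Slc2a3 and Slc2a13 held 87.7% of all reads assigned to the 9 members, with a range of 85.8% to 89.2% over the libraries. The share of reads does not compare transcript numbers, because the transcripts differ in length. Per kilobase of the longest coding transcript, Slc2a3 stood at 48.3 ± 3.23 CPM per kb and Slc2a1 at 45.5 ± 6.13 (SD, n = 6 libraries), and these neighbours overlapped, with Slc2a3 above Slc2a1 in 4 of 6 libraries. Slc2a13 followed at 26.1 ± 1.35, then Slc2a6 at 14.4 ± 1.17 and Slc2a8 at 11.6 ± 1.43, whose ranges overlapped. Slc2a5 stood at 1.91 ± 0.265 and Slc2a12 at 1.67 ± 0.633, again with overlap. Slc2a4 at 0.716 ± 0.0632 and Slc2a10 at 0.403 ± 0.109 CPM per kb were the lowest.

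The order of the leading pair depended on the length used. Per kilobase of the union of exons, a length chosen as an alternative after the data were seen, Slc2a1 stood at 42.3 ± 5.70 and Slc2a3 at 26.4 ± 1.77 CPM per kb, and Slc2a1 was higher in 6 of 6 libraries without overlap. For Slc2a3, the annotation's longest coding transcript has 3959 bases and the union of its exons 7245 bases, whereas for Slc2a1 the values are 3260 and 3506 bases. The deposited tables do not say which transcripts the reads came from, so which of these genes had more transcripts cannot be told here.

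**Figure D2:**
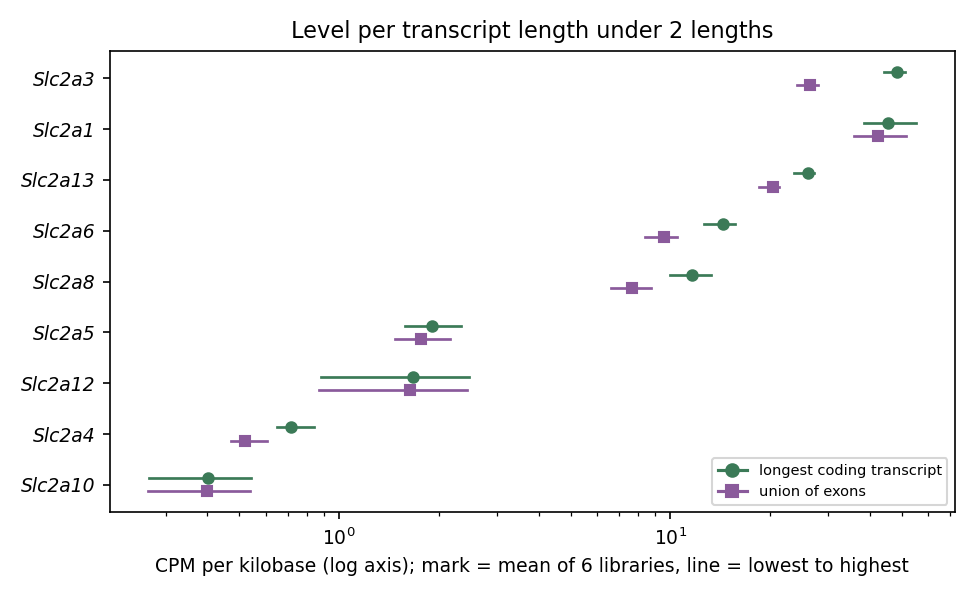
CPM per kilobase of the 9 members on a log axis, with the mean of the 6 libraries as a mark and the lowest to highest library as a line, per kilobase of the longest coding transcript (green circles) and of the union of exons (purple squares). Slc2a3 and Slc2a1 overlap at 48.3 and 45.5 under the first length and separate at 26.4 and 42.3 under the second.

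The balance between the neuronal and the endothelial and astrocytic transporter was also read within each library. Counts of Slc2a3 per count of Slc2a1 were 1.43, 1.57 and 1.24 in NS replicates 1 to 3, and 1.12, 1.33 and 1.14 in WS replicates 1 to 3. The WS value was the lower one in all 3 same-numbered pairs, but WS replicate 2 lay above NS replicate 3, so the groups overlapped. The means were 1.41 ± 0.170 and 1.20 ± 0.114 (SD, n = 3 each), 0.851-fold on the geometric scale, and an exact two-sided permutation test gave p = 0.2. Leaving out 1 library at a time moved the log2 difference between -0.33 and -0.15 without turning it.

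The summed level of the 9 members was 582.1, 569.3 and 602.6 CPM in NS and 612.2, 552.6 and 571.2 CPM in WS. The highest and the lowest library were both WS. The means were 584.7 ± 16.8 and 578.7 ± 30.5 CPM (SD, n = 3 each), and an exact two-sided permutation test of the log2 sums gave p = 0.8.

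Because a bulk sample mixes cell types, Slc2a1, Slc2a3 and Slc2a5 were also set against the markers of the cells that carry them. Fewer cells of a type and less RNA per cell cannot be told apart in such data. The 13 endothelial markers (Pecam1, Cdh5, Cldn5 and others) all had fitted changes above 0, with a median log2 fold change of 0.0877 and 0 calls, and their summed level ranged from 309.7 to 348.5 CPM in NS and from 343.3 to 401.7 CPM in WS. Pecam1, an endothelial adhesion molecule, had the largest fitted change of the list, at 17.2, 16.3 and 19.2 CPM in NS and 22.2, 33.0 and 41.5 CPM in WS (log2 fold change 0.87). It was the only 1 of the 13 markers without overlap, beside 6.27% of all tested genes. It did not pass adjustment (Benjamini-Hochberg adjusted p = 0.8129 in edgeR's quasi-likelihood fit). Other lists also leaned above 0, with fitted changes above 0 for 8 of 8 oligodendrocyte markers (median 0.194), 6 of 6 erythroid markers (0.0519) and 10 of 12 pericyte and smooth muscle markers (0.124), and 0 calls in each list. The choroid plexus list went the other way, with 3 changes above 0 and 6 below (median -0.093). Of all tested genes, 53% had changes above 0, and the markers of a list are not independent of each other. The sums of the pericyte and smooth muscle markers, 308.3 to 314.7 CPM in NS and 319.2 to 371 CPM in WS, did not overlap. Relative to 1000 CPM of the endothelial markers, Slc2a1 stood at 455, 399 and 454 CPM in NS and at 525, 381 and 381 CPM in WS. WS replicate 1 was highest, the other WS libraries were lowest, and the groups overlapped (exact two-sided permutation p = 0.8). The log2 difference of this ratio was -0.04, and it turned to 0.01 when Pecam1 was left out of the sum, an alternative added after the data were seen.

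The 10 astrocyte markers also all had fitted changes above 0, with a median log2 fold change of 0.13 and 0 calls. Their sum ranged from 4586.7 to 5100.3 CPM in NS and from 4809.9 to 5935.3 CPM in WS. Slc2a1 per 1000 CPM of astrocyte markers was 28.0, 24.6 and 34.5 in NS and 35.8, 27.4 and 25.8 in WS, with overlap and an exact two-sided permutation p of 0.8. The log2 difference of this ratio was 0.03 and turned to -0.08 when the markers were averaged on the log scale, and without Gja1 it was 0.05 from the sum and 0.02 from the log mean.

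Slc2a3 per 1000 CPM of neuronal markers was 13.7, 13.6 and 13.8 in NS and 13.8, 12.6 and 12.4 in WS. As for the unscaled level, WS replicate 1 matched NS and WS replicates 2 and 3 lay below it (log2 difference -0.08, exact two-sided permutation p = 0.4). Leaving out 1 library at a time moved that difference from -0.13 (without WS replicate 1) to -0.05 (without WS replicate 3). Of the 13 neuronal markers, 7 had fitted changes above 0 and 6 below, with sums from 14210.4 to 14665.3 CPM in NS and from 13873.6 to 14674.7 CPM in WS. The scaling left the order of the WS libraries for Slc2a3 as it was.

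**Figure D3:**
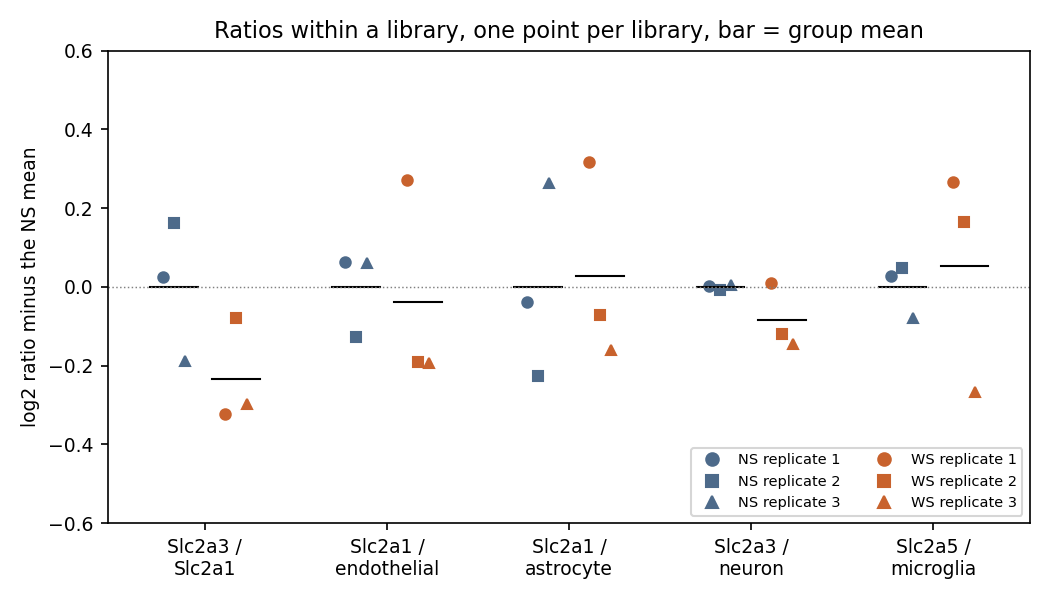
Log2 ratios computed within each library and centred on the NS mean, with 1 point per library (blue NS, orange WS) and a black bar at each group mean, for Slc2a3 over Slc2a1 and for Slc2a1, Slc2a3 and Slc2a5 over the summed markers of a cell type. The WS mean of Slc2a3 over Slc2a1 lies 0.23 below the NS mean, and NS and WS points overlap in every column.

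Slc2a5, the fructose transporter that marks microglia in the brain (chr4:150119283-150144169, plus strand), was measured at 5.93, 5.74 and 5.53 CPM in NS and at 7.35, 6.62 and 4.99 CPM in WS. NS was narrow, and WS held both the highest and the lowest library. The log2 fold change was 0.14 (SE 0.17, 95% interval -0.23 to 0.52). Per 1000 CPM of 10 microglial markers the values were 11.1, 11.3 and 10.4 in NS and 13.1, 12.2 and 9.08 in WS, with an exact two-sided permutation p of 0.8. Of those markers 9 had fitted changes above 0 and 1 below, with 0 calls, and their sum ranged from 507.8 to 534.1 CPM in NS and from 540.4 to 558.9 CPM in WS, without overlap.

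Slc2a6 and Slc2a8 encode transporters that reside mainly in intracellular membranes. Slc2a6, a lysosomal transporter (chr2:27021363-27027998, minus strand), was measured at 26.9, 32.0 and 33.7 CPM in NS and at 32.6, 30.4 and 29.2 CPM in WS. All WS values fell inside the NS range, and the log2 fold change was -0.0043 (SE 0.11, 95% interval -0.24 to 0.23). Slc2a8, which is found in neurons (chr2:32972990-32982083, minus strand), was measured at 21.2, 24.8 and 23.9 CPM in NS and at 28.1, 27.8 and 21.3 CPM in WS. WS replicates 1 and 2 exceeded all NS libraries and WS replicate 3 did not. The log2 fold change of Slc2a8 was 0.14 (SE 0.12, 95% interval -0.12 to 0.41).

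Slc2a4 and Slc2a12 encode insulin-responsive transporters. Slc2a4, the GLUT4 of muscle and fat (chr11:69942539-69948188, minus strand), had 26, 28 and 34 counts in NS and 30, 29 and 28 counts in WS. All WS counts lay inside the NS range, and the log2 fold change was -0.04 (SE 0.23, 95% interval -0.55 to 0.47). At this level counting error alone is wide, since the exact 95% Poisson interval of 26 counts runs from 17 to 38.1 counts and covers counting error only.

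Slc2a12 (chr10:22645011-22704285, plus strand) was the most variable member. It was measured at 6.24, 5.12 and 10.3 CPM in NS and at 3.67, 9.90 and 6.44 CPM in WS. NS replicate 3 and WS replicate 2 were high and WS replicate 1 was low, so the variation ran across both groups. The coefficient of variation over the 6 libraries was 38.0%, and 98.5% of tested genes of like abundance varied less. The log2 fold change between the groups was -0.12 with an SE of 0.32, and the 95% interval runs from -0.83 to 0.59, or from 0.564-fold to 1.5-fold.

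Markers of the choroid plexus, a secretory epithelium of the ventricles, were high and low in the same libraries as Slc2a12 at the extremes, but not in between. The summed level of the 9 listed choroid plexus markers was 495, 705.6 and 887.5 CPM in NS and 304.3, 1012.0 and 647.9 CPM in WS. The same NS replicate 3 and WS replicate 2 were highest and the same WS replicate 1 was lowest, whereas NS replicate 1 lay below NS replicate 2 in the marker sum and above it in Slc2a12. Enpp2, which oligodendrocytes also express, made up most of the sum, at 290.9 to 878.6 CPM. Folr1, a folate receptor of this epithelium, followed the same order at its extremes, with 2.90, 7.12 and 11.4 CPM in NS and 0.652, 11.6 and 5.12 CPM in WS. Otx2, a transcription factor of this epithelium, did not, with 1.95, 3.18 and 4.47 CPM in NS and 0.652, 7.36 and 8.40 CPM in WS. Pearson's r between Slc2a12 and the marker sum on the log2 scale was 0.88 over the 6 libraries, and over the other marker lists examined it ranged from -0.77 (neuron) to 0.50 (erythroid). These r values describe 6 libraries of similar depth, and the part of choroid plexus tissue in the Slc2a12 values was not tested. Slc2a12 also shares 407 exonic bases with Tbpl1 on the other strand, a general transcription factor gene measured at 56.6 to 65.1 CPM, so reads of the pair could be confused if counting ignored strand.

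**Figure D4:**
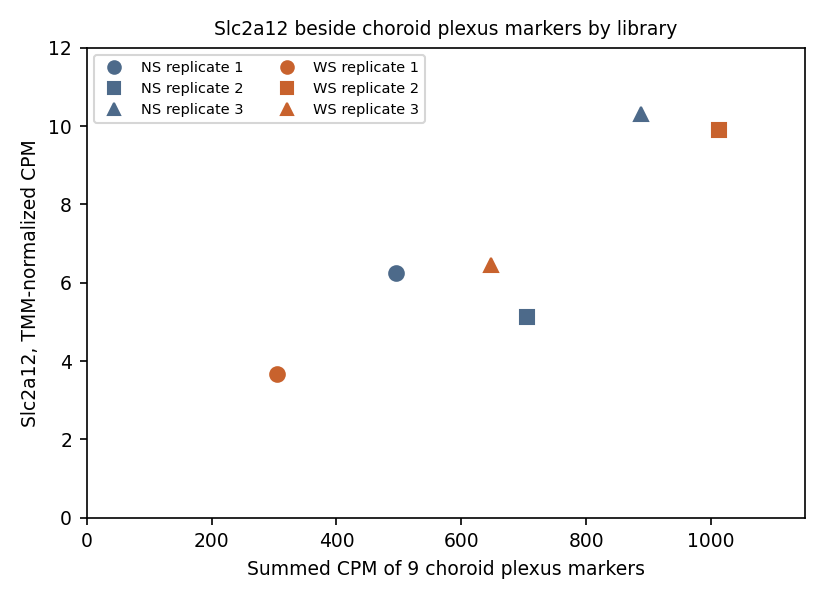
Slc2a12 in TMM-normalized CPM against the summed CPM of 9 choroid plexus markers, with 1 point per library (blue NS, orange WS, marker shape for the replicate number) and both axes starting at 0. WS replicate 1 is lowest on both axes, and NS replicate 3 and WS replicate 2 are highest on both.

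Slc2a10, an intracellular transporter linked to arterial wall integrity (chr2:165503787-165519917, plus strand), had the fewest reads of the members. It had 15, 23 and 21 counts in NS and 19, 31 and 29 counts in WS, or 0.946, 1.44 and 1.3 CPM against 1.13, 1.92 and 1.83 CPM. WS replicates 2 and 3 exceeded all NS libraries, and WS replicate 1 lay inside the NS range. The WS value was the higher one in 3 of 3 same-numbered pairs. Its log2 fold change over all 6 libraries was 0.40 (SE 0.30), and in that fit it was the only member outside the range from -0.17 to 0.26 that holds the 5th to 95th percentile of all tested genes. Leaving out 1 library at a time moved it from 0.24 (without NS replicate 1) to 0.61 (without WS replicate 1), and it lay inside that range without NS replicate 1 or without WS replicate 2 (0.25). Its 95% interval from -0.26 to 1.06 includes 0. For counting error only, the exact 95% Poisson interval is 8.40 to 24.7 for its lowest count of 15 and 21.1 to 44.0 for its highest count of 31.

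**Figure D5:**
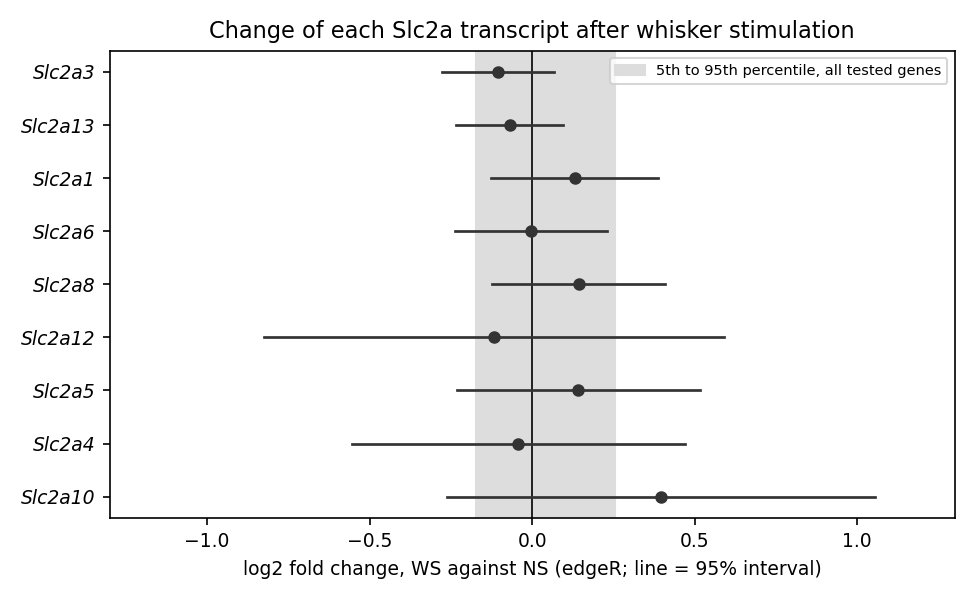
Log2 fold change of WS against NS for the 9 members (points) with the 95% interval of each (lines, edgeR), beside the 5th to 95th percentile of all tested genes (grey band). Every interval crosses 0, and in this fit of all 6 libraries only the point of Slc2a10 at 0.40 lies outside the band.

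WS libraries spread more widely than NS libraries for most members, as they did across the transcriptome. The coefficient of variation was larger in WS for 7 of 9 members and for 64.1% of all tested genes, with a median over all tested genes of 7.15% in NS and 10.1% in WS. Slc2a3 and Slc2a13 had the narrowest NS groups, while Slc2a4 and Slc2a6 were the members with the smaller spread in WS. Slc2a4 had 28 to 30 counts in each WS library, closer together than counting error alone would give, so its spread cannot be read.

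The intervals bound what these libraries could have shown. For Slc2a1, Slc2a3 and Slc2a13 a doubling or halving lies far outside the intervals, while for Slc2a10 a doubling lies just inside its upper end of 2.08-fold in the planned fit. For Slc2a10 this depended on the fit, with an upper end on the log2 scale of 0.97 with the replicate block and 1.24 with DESeq2, where a doubling is 1 unit. In the same libraries, the lactate transporters Slc16a1 and Slc16a7 and the angiogenic factor Vegfa, which the study named for their rise, ranged from 43.2 to 44.5, 46.1 to 55.2 and 49.9 to 52.8 CPM in NS. Their WS ranges were 79.6 to 110.1 CPM for Slc16a1, 97.5 to 182.3 CPM for Slc16a7 and 99.9 to 157.6 CPM for Vegfa, and none of these overlapped NS. The study named these genes with the RNA-seq of these same libraries, so their separation here is a description and no independent check of sensitivity.

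Promoter sequence was examined because Slc2a1 is a classical target of the hypoxia-inducible factors, which bind the core ACGTG. RefSeq promoter windows (GRCm38.p6, 250 bases before to 50 after the gene start) were matched for 7 of the 9 members, and not for Slc2a3 and Slc2a4. On either strand, ACGTG occurred in 2 of 7 windows, those of Slc2a1 and Slc2a10, and in 19.6% of all 32851 windows. The E-box CACGTG, which contains ACGTG, the cyclic AMP response element TGACGTCA and the AP-1 site TGAGTCA occurred in 0 of 7, and in 7.15%, 1.79% and 5.20% of all windows. The upstream window of Slc2a1 is shown for the place of its match, 36 bases before the RefSeq start (chr4:119108495-119108724, plus strand, 5′ to 3′, ACGTG in capitals). The match spans the start of the GENCODE model (chr4:119108711), so its last bases and the rest of the window lie in the first exon of that model.
Slc2a1: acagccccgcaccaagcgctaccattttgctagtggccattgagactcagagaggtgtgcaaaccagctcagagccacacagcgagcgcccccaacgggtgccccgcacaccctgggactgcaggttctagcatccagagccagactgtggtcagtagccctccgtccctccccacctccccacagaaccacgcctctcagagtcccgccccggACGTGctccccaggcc
A match of 5 bases is a description of the sequence and does not show binding.

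Genes that act with these transporters were described in the same way. Of 64 genes in 5 lists, 56 were listed and 55 tested, with 33 fitted changes above 0, 22 below 0, 0 calls and a median log2 fold change of 0.0078, against 0.0074 over all tested genes. With 0.0291% of all tested genes called, a list of this size would hold no call at the background share, so the 0 says nothing particular about these genes. The enzymes that phosphorylate sugars and start glycolysis had 5 of 12 tested changes above 0 and 7 below, from Pgm2 (phosphoglucomutase, log2 fold change 0.07) to Hkdc1 (a hexokinase domain protein, -0.13), where the extremes named for this and the following lists are among genes averaging 100 counts or more. Hk1, the main hexokinase of brain, was at 413.7 ± 10.9 CPM in NS against 423.3 ± 41.3 CPM in WS (SD of 3 libraries). Hk2, the inducible hexokinase, had 62, 54 and 67 counts in NS and 59, 41 and 50 counts in WS, which overlapped, and a log2 fold change of -0.31.

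Genes of fructose and myo-inositol handling had 8 of 10 changes above 0 and 2 below, up to 0.41 in a gene of lower count and, at 100 counts or more, from Aldoc, the aldolase of astrocytes (0.13), to Akr1b3, the aldose reductase (-0.09). The 6 sodium-coupled sugar transporters on the list were not analysed here. Genes that move GLUT proteins to and from the cell surface had 11 of 16 changes above 0 and 5 below, from Tbc1d4, the Rab regulator of GLUT4 vesicles (0.12), to Arrdc4, an arrestin-like protein that promotes GLUT1 removal (-0.21). Arrdc4 was at 7.06, 7.68 and 7.14 CPM in NS and at 6.70, 6.37 and 5.87 CPM in WS, so every WS value lay below every NS value. Vps26a, a subunit of the retromer complex that recycles GLUT1, was the other gene of this list without overlap, at 68.0, 63.6 and 66.9 CPM in NS and 57.4, 60.4 and 61.5 CPM in WS. These 2 of 55 tested genes compare with 6.27% of all tested genes, and neither passed adjustment (Benjamini-Hochberg adjusted p = 0.9998 for each in edgeR's quasi-likelihood fit).

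Signalling and transcription genes upstream of the transporters had 9 of 17 changes above 0 and 8 below, from Irs1, the insulin receptor substrate (0.12), to Prkaa2, a catalytic subunit of AMP-activated kinase (-0.08). Hif1a, the hypoxia-inducible factor subunit, was at 87.0 ± 0.595 CPM in NS against 85.0 ± 9.15 CPM in WS (SD of 3 libraries). Txnip, which restrains glucose uptake through GLUT1, was at 24.8 ± 3.67 and 26.3 ± 1.17 CPM.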

How the data were processed

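Bulk RNA-seq of S1 cortex (3 NS and 3 WS libraries, groups from the sample labels) was analysed. Per the methods, the authors sequenced on a DNBseq instrument, removed rRNA and low-quality reads, aligned with HISAT2 and tested with DESeq2 and PossionDis; the labels name mm10, and the counting tool and strand setting are not given in the sources used here. RNA with an integrity number above 2 was accepted. The authors deposited, per gene, a mean estimated count over the 6 libraries, its SD, and a z-score per library. The z-scores, and the group means of this score that the authors also deposited, have no unit, and the group means served only to place the column of WS replicate 3, whose name has an added letter. A second table of the authors' own fold changes and p-values was not used.

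The design had foreseen a count table, so counts were first computed back as mean + z × SD and rounded (91% of values within 0.1 of a whole number over 13418 genes). The range of depth over the libraries is given in the results, and counts under about 30 carry wide counting error. No replicates were alike within sampling noise (chi-square of at least 6.2 per degree of freedom). edgeR 4.0.16 in R 4.3.3 (TMM, filterByExpr, quasi-likelihood F test, Benjamini-Hochberg over 13747 genes) was tested on simulated data first; intervals are the estimate ± t × SE. Single values were compared by exact two-sided permutation (20 splits) with SciPy 1.17.1. Lengths and positions came from GENCODE M21 on GRCm38, promoters from RefSeq.

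Replicate numbers come from the labels. Deviations of same-numbered libraries from their group means correlated at r = 0.342, 0.228 and 0.124 over 13747 genes, each above 0.1. Differently numbered libraries had r from -0.257 to 0.038. The numbers were therefore used as a possible pairing, which the sources used here do not state. A fit with the number as a block was run beside the planned fit without it. Other alternatives were normalization, filters, DESeq2 1.42.0 and leaving out each library. The members and lists were chosen with earlier results of these data known. By the rule, genes named beside the members are the extremes of each pathway list averaging 100 counts or more, the other Slc2a gene listed, and the 3 genes most like Slc2a1 and like Slc2a3. Outside the rule, Slc16a1, Slc16a7 and Vegfa were named because the study names them, Tbpl1 and Gm12868 because they overlap a member, Gja1 because 1 library stands apart in it, and some markers only to say what a list holds. Hif1a, Hk1, Hk2, Txnip, Vps26a, Pecam1, Folr1, Otx2 and Enpp2 were chosen after their values were seen.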

Additional observations from a re-analysis of the deposited data

How the results depend on the processing

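No member was called under any of the 13 other settings, and the lowest adjusted p of any member in any setting was 0.884 by edgeR's quasi-likelihood test or DESeq2. The replicate block, fitted as a term for the replicate number, changed no member's call, and called 6 genes in all in place of 4. Under it, the Slc2a3 to Slc2a1 ratio had an exact sign-flip p of 0.25, the smallest that 3 pairs allow. The direction held in every setting for 6 members, but leaving out 1 library at a time moved their log2 fold changes widely: from 0.0072 to 0.23 for Slc2a1, -0.18 to -0.07 for Slc2a3, 0.02 to 0.28 for Slc2a5, 0.08 to 0.26 for Slc2a8, 0.24 to 0.61 for Slc2a10 and -0.12 to -0.02 for Slc2a13. It turned the others, with changes from -0.116 to 0.0713 for Slc2a4, from -0.0943 to 0.0636 for Slc2a6 and from -0.53 to 0.23 for Slc2a12. The same moved the log2 difference of the summed level from -0.0571 to 0.0167, and that of Slc2a1 over endothelial markers from -0.19 to 0.0396. It moved Slc2a1 over astrocyte markers from -0.12 to 0.16, and Slc2a5 over microglial markers from -0.0515 to 0.22. Without Pecam1, Slc2a1 over endothelial markers was 0.0144. With markers averaged on the log scale, Slc2a1 over astrocyte markers was -0.0805 and Slc2a3 over neuronal markers -0.12. The number of genes called higher ranged from 0 (without NS replicate 2 or NS replicate 3) to 6, and called lower from 0 to 1 (without WS replicate 3). The cause was not tested. The lowest unadjusted edgeR p without 1 library was 0.0213 (Slc2a3, without WS replicate 1). The 95% intervals of Slc2a12 (62 to 166 counts a library), Slc2a10 and Slc2a4 (15 to 34 counts) each span more than 1 unit of log2 fold change.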

Other observations

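Slc2a9, a urate transporter of the same family that was not among the chosen members, had 11, 10 and 10 counts in NS and 12, 11 and 6 counts in WS, which overlapped. Among 10876 genes averaging 100 counts or more, those whose log2 CPM ran most like Slc2a1 over the 6 libraries were Rpl3 (Pearson's r = 0.993), Wrap53 (0.992) and Dusp26 (0.991). For Slc2a3 they were B4galt3 (0.981), Brf2 (0.975) and Sik2 (0.972). These are the extremes of many genes over 6 libraries of similar depth, and are given as a description.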
